A study of Homo sapiens with 15 samples.

Results

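The enzymes that write, keep and erase DNA methylation were followed at the transcript level through cardiac differentiation of H1, a human embryonic stem cell line. The set held 8 genes, taken from the expression table by symbol: the maintenance pair DNMT1 and UHRF1, the de novo group DNMT3A, DNMT3B and DNMT3L, and the dioxygenases TET1, TET2 and TET3. All 8 were among the 60605 genes of the table, and 7 reached an FPKM of 1 in at least 1 of the 15 libraries. The exception was DNMT3L. FPKM is the number of reads per kilobase of exon, scaled to the total count of the library.

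In mammals most methylation sits on the cytosine of CpG dinucleotides. DNMT3A and DNMT3B set new marks, and DNMT3L, which has no catalytic activity of its own, assists them. When DNA is copied, each daughter duplex carries the mark on the old strand only. UHRF1 binds such hemimethylated sites and brings DNMT1, which restores the mark on the new strand. TET enzymes oxidise methylcytosine, with oxygen and 2-oxoglutarate as co-substrates, and the oxidised base is lost by dilution at replication or is cut out by base excision repair. DNMT3B and TET1 are known for high expression in pluripotent cells, and TET2 and TET3 for expression in many differentiated tissues. Methylation itself was not measured here.

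All libraries came from wild-type H1 cells of 1 differentiation series. Cells were driven to mesendoderm with CHIR99021, an activator of WNT signalling, and libraries of Days 0, 1 and 2 were shared by all conditions. From then on NP-ctrl cells stayed in their wells and differentiated without an inducer. NP-IWP2 cells were left in their wells too but treated with IWP2, which blocks the secretion of WNT ligands. For the passaged arm, cells were lifted from their wells on Day 2 and plated again, with no WNT inhibitor. Replating brought a ROCK inhibitor and a lower cell density with it, so these cannot be told apart from dissociation. Each of the 3 arms had 1 library on Days 3, 5, 7 and 10, and no condition had a replicate. The arms were tested with successive days of 1 culture series standing in for replicates, so a p-value measures the spread between days and not between independent cultures.

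Total counts ranged from 13254723 to 20250115 per library. The share of mitochondrial counts was 1.53% in the passaged library of Day 3, 10.3% in that of Day 10, and between 3.71% and 6.14% in the others. On Day 0 all 13 pluripotency markers were detected, and POU5F1 stood at an FPKM of 625.3. On Day 10 the summed FPKM of 10 cardiomyocyte markers was 697.2 (NP-ctrl), 2217 (NP-IWP2) and 5864 (passaged). The sum of 6 endoderm and liver markers was 4007, 1178 and 17.9 in the same order, and that of 6 epicardial and fibroblast markers was 3327, 952.3 and 88.7. APOA2 and FOXA2 had no counts in passaged cells on Day 10. For 4 endothelial markers the sums were alike, at 118.3 (NP-ctrl), 117.6 (NP-IWP2) and 120.6 (passaged). Of these 4 only 1, KDR, was higher in passaged than in NP-ctrl cells. The arms thus differed late in the series in markers of some other cell types, whose part in the values of the enzymes was not tested. In bulk RNA, fewer cells that express a gene cannot be told apart from less of its RNA per cell.

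The plot of the members' FPKM by day and arm gives every measured value of the 7 expressed genes.

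**Figure D1:**
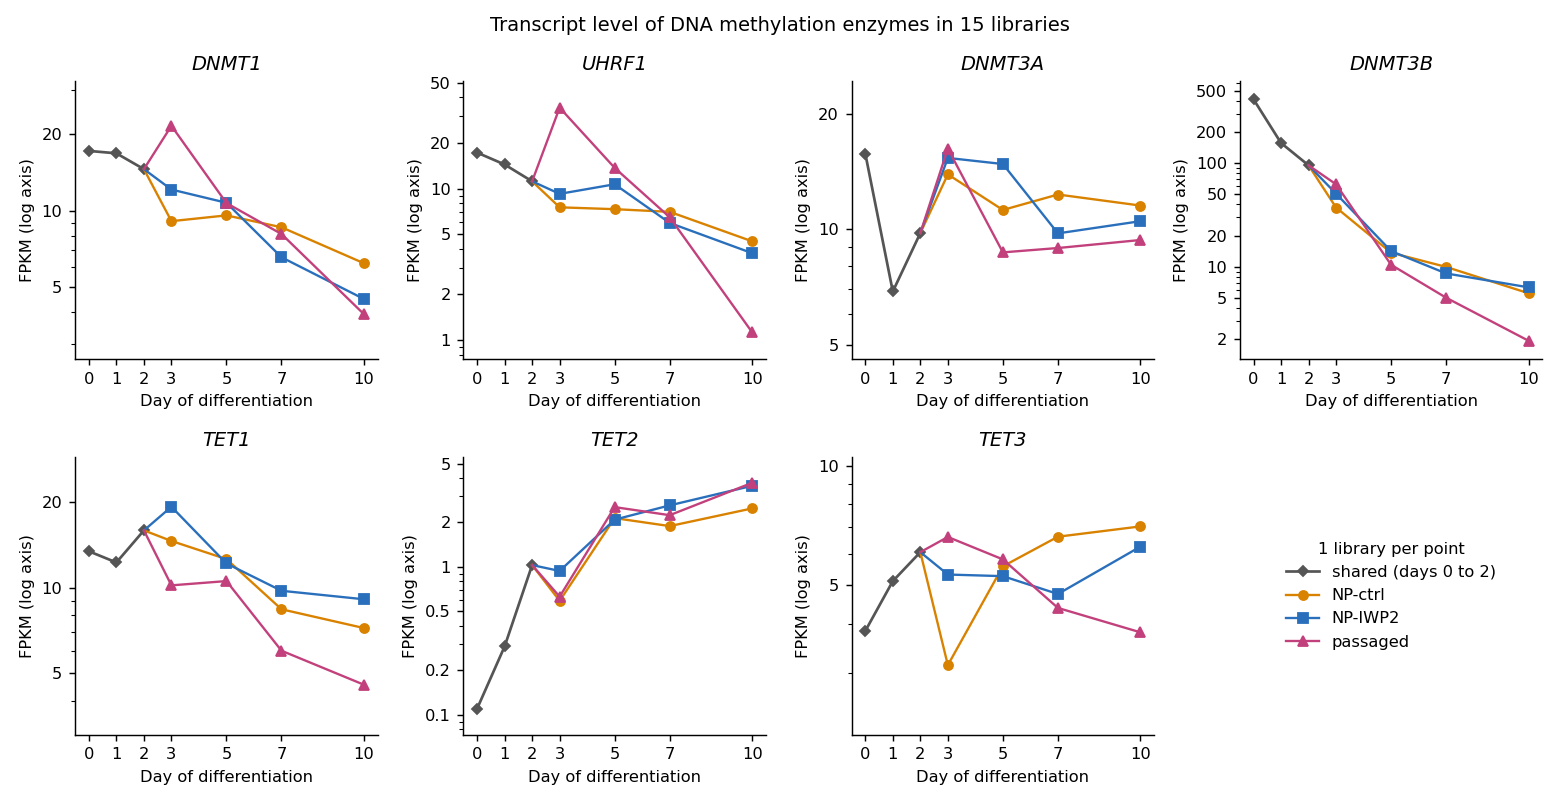
FPKM on a log axis (y) against the day of differentiation (x) for 7 genes, 1 library per point and no error bars. Grey diamonds are the shared Days 0 to 2, orange circles NP-ctrl, blue squares NP-IWP2 and pink triangles passaged cells. DNMT3B went from 413.3 on Day 0 to between 1.93 and 6.33 on Day 10, TET2 went from 0.11 to between 2.49 and 3.71, and the passaged library of Day 3 had the highest DNMT1 and UHRF1 of the 15.

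DNMT1 (ENSG00000130816) lies on the minus strand at chr19:10133342-10231286 of GRCh38. Over Days 0, 1 and 2 its FPKM was 17.2, 16.8 and 14.6. NP-ctrl cells then gave 9.11, 9.60, 8.62 and 6.22 on Days 3, 5, 7 and 10. NP-IWP2 cells gave 12.1, 10.8, 6.57 and 4.50 on the same days. Passaged cells gave 21.6, 10.7, 8.11 and 3.92, which holds both the highest and the lowest value of the series. Counts of DNMT1 were between 918 and 4774. S1PR2 overlaps DNMT1 on the same strand and had 174 to 451 counts. How reads in the overlap were assigned was not given in the sources used here.

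UHRF1 (ENSG00000276043, chr19:4903080-4962154, plus strand) is the reader that guides DNMT1 to replicated DNA. Its FPKM was 17.3, 14.4 and 11.2 on Days 0, 1 and 2. NP-ctrl cells had 7.52, 7.31, 7.02 and 4.48, and NP-IWP2 cells had 9.23, 10.7, 5.93 and 3.74. In passaged cells UHRF1 was 34.3, 13.7, 6.46 and 1.12 over the same days. From Day 3 to Day 10 UHRF1 thus became 30.5-fold lower in the passaged arm, 1.68-fold lower without an inducer (NP-ctrl) and 2.47-fold lower with IWP2. The last value rested on 88 counts.

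Both genes of the maintenance pair followed the day and the arm together, and windows at their annotated starts were compared for letters that are typical of cell cycle genes. The windows run from 250 bases before to 50 after the annotated start (RefSeq, GRCh38.p14). The motif searched was that of E2F factors, the transcription factors of the G1 to S transition, written as TTTCCCGC, TTTCGCGC, TTTGCCGC or TTTGGCGC on either strand. A match was present in 3 of 18 windows that 7 members had, against 3.31% of all 35116 windows in the table. Every form of the motif holds a CG, and the windows with a match had 30, 36 and 40 CG dinucleotides against a median of 14. Some windows of the same gene also overlap. The shares therefore cannot show an enrichment, and none was tested. The 3 windows are shown because each holds 1 match, in capitals:
DNMT1, chr19:10194904-10195203, minus strand: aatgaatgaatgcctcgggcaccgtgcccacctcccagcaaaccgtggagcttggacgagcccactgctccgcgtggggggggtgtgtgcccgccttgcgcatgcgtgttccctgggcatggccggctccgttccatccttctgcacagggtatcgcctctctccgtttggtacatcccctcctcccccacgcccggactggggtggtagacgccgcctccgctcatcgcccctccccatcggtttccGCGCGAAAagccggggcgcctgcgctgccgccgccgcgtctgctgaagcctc
UHRF1, chr19:4909251-4909550, plus strand: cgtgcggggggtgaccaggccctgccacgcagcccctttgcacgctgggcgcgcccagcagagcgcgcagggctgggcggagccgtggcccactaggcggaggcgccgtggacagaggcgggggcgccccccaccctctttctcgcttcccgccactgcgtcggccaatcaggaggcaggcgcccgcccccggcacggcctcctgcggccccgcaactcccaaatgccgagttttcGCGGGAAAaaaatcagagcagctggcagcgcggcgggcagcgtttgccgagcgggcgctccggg
UHRF1, chr19:4909894-4910193, plus strand: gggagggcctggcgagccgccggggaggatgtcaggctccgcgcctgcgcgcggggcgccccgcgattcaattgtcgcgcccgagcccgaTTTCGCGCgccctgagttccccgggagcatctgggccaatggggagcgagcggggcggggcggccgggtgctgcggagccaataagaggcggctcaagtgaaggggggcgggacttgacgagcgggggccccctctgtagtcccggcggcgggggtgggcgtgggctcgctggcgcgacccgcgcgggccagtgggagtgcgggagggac
UHRF1 thus had a match in 2 of its 3 windows and DNMT1 in its only one. A match is a description of letters. No match was found in the windows of DNMT3A, DNMT3B, TET1, TET2 and TET3, which says only that these letters were not in the windows searched. The only DNMT3B window in the table (chr20:32779602-32779901) lies inside the gene, away from the gene start of the expression table, so it says nothing of the sequence at that start. The same holds for all windows of DNMT1 and UHRF1, those with a match included. The highest number of CG dinucleotides was 46, in windows of DNMT3A and UHRF1, where the median over all windows was 14.

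DNMT3B (ENSG00000088305, chr20:32762385-32809356, plus strand) was by far the most abundant writer at the start. Its FPKM was 413.3, 156.6 and 95.2 on Days 0, 1 and 2. The ratio of Day 2 to Day 0 was 0.230 (95% Clopper-Pearson interval from counting, 0.225 to 0.236), a 4.34-fold difference. These intervals cover counting error only and hold no variation between cultures. DNMT3B was the only member that differed by at least 1 on the log2(FPKM + 1) scale between these libraries, a difference that 11.7% of all 21206 genes reached. TET2 changed by a larger fold, from an FPKM of 0.11 to 1.03, which the added 1 damps. With a pseudocount of 0.1, or with TPM, TET2 was past the measure too. By Day 3 DNMT3B stood at 37.3 (NP-ctrl), 50.8 (NP-IWP2) and 62.5 (passaged). On Days 5 and 7 NP-ctrl cells had 13.7 and 9.97, NP-IWP2 cells 14.2 and 8.63, and passaged cells 10.5 and 5.03. On Day 10 the levels were 5.55, 6.33 and 1.93. The passaged arm therefore went from the highest DNMT3B of the 3 arms on Day 3 to the lowest from Day 5 on. Its Day 10 library was 214.1-fold under Day 0.

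DNMT3A (ENSG00000119772, chr2:25227855-25342590, minus strand), the other catalytic de novo enzyme, moved little by comparison. From Day 0 to Day 2 its FPKM was 15.7, 6.88 and 9.77. The Day 1 value was the lowest of the series, and the ratio to Day 0 was 0.438 (0.413 to 0.463). NP-ctrl cells had 13.9, 11.2, 12.3 and 11.5 on Days 3 to 10. NP-IWP2 cells had 15.3, 14.8, 9.75 and 10.5, and passaged cells 16.2, 8.70, 8.93 and 9.37. All 3 arms were above Day 2 on Day 3, by 1.42-fold, 1.57-fold and 1.66-fold. DNMT3L had 6 counts in all 15 libraries together and at most 3 in any one. That is at or under the limit of 3 counts, which corresponds to an FPKM of 0.0797 to 0.122 for this gene, so no fold change is given.

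TET1 (ENSG00000138336, chr10:68560337-68694487, plus strand) was the main TET transcript at the start. Its FPKM was 13.5, 12.3 and 15.9 on Days 0, 1 and 2. NP-ctrl cells had 14.6, 12.6, 8.41 and 7.22 on Days 3, 5, 7 and 10. NP-IWP2 cells had 19.3, 12.2, 9.77 and 9.12, and passaged cells 10.2, 10.6, 6.01 and 4.56. The passaged arm was the lowest of the 3 on every one of these days.

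TET2 (ENSG00000168769, chr4:105145875-105279816, plus strand) took the opposite course. It was nearly absent on Day 0, with 31 counts and an FPKM of 0.11, and reached 0.29 on Day 1 and 1.03 on Day 2. The ratio of Day 2 to Day 0 was 9.25 (6.39 to 13.8). NP-ctrl cells had 0.59, 2.14, 1.89 and 2.49, NP-IWP2 cells 0.94, 2.09, 2.61 and 3.54, and passaged cells 0.63, 2.54, 2.24 and 3.71. On Day 10 TET2 was 22.5-fold (15.7 to 33.4) above Day 0 in NP-ctrl cells, while the other arms stood 31.9-fold (NP-IWP2, 22.3 to 47.3) and 33.5-fold (passaged, 23.4 to 49.6) above it. All 3 arms were under the Day 2 value on Day 3 and above it from Day 5 on. The interval of the NP-IWP2 ratio of Day 3 to Day 2 spanned 1 (0.772 to 1.10). The antisense transcript TET2-AS1 had at most 5 counts in any library.

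TET3 (ENSG00000187605, chr2:73984910-74108176, plus strand) kept within a narrow range but in an order that differed between arms. Its FPKM was 3.83, 5.12 and 6.06 on Days 0, 1 and 2. In NP-ctrl it was 3.14 on Day 3 and 5.58, 6.63 and 7.04 afterwards. In passaged cells it was 6.62 on Day 3 and 5.81, 4.38 and 3.80 afterwards, while NP-IWP2 cells had 5.32, 5.27, 4.75 and 6.26. NP-ctrl thus ran upward and the passaged arm downward over the same days. Day 3 of NP-ctrl was the lowest TET3 value of the series and Day 10 of NP-ctrl the highest.

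Ratios between members within a library do not depend on how libraries are scaled, and they show the exchange directly. DNMT3B exceeded DNMT3A 26.3-fold (25.4 to 27.2) on Day 0 and 9.75-fold on Day 2. On Day 3 the ratio was 2.69 (NP-ctrl), 3.31 (NP-IWP2) and 3.86 (passaged), and on Day 5 it was near 1 in all 3 (0.958 to 1.22). By Day 10 DNMT3A exceeded DNMT3B in every arm, with ratios, in the same order, of 0.482 (0.429 to 0.540), 0.603 (0.545 to 0.667) and 0.206 (0.172 to 0.245). DNMT3B made up 92.6% of the summed FPKM of DNMT1, DNMT3A and DNMT3B on Day 0, and 23.8%, 29.7% and 12.7% on Day 10.

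Among the erasers the ratio of TET2 to TET1 was 0.00824 (0.00558 to 0.0117) on Day 0 and 0.0643 on Day 2. On Day 10 NP-ctrl cells reached 0.345 (0.310 to 0.384), NP-IWP2 cells 0.388 (0.357 to 0.422) and passaged cells 0.814 (0.737 to 0.901). The interval of the passaged library did not overlap the others. These intervals hold the counting error of single libraries only, so this is not a test of a difference between arms. TET1 made up 77.4% of the summed TET level on Day 0. In passaged cells on Day 10 the shares were 37.8% TET1, 30.7% TET2 and 31.5% TET3. The summed TET level stayed between 12.1 and 25.6 FPKM in all 15 libraries. The sum of DNMT1, DNMT3A and DNMT3B went from 446.2 on Day 0 to 23.3 (NP-ctrl), 21.3 (NP-IWP2) and 15.2 (passaged) on Day 10. The ratio of the summed writers to the summed erasers accordingly went from 25.6 to 1.39, 1.13 and 1.26.

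The proportion of the maintenance pair varied less in the arms that were not passaged. The ratio of UHRF1 to DNMT1 was 1.00 on Day 0 and lay between 0.719 and 0.993 in all 8 libraries of NP-ctrl and NP-IWP2. Within that range it was 0.761 (0.694 to 0.833) in NP-ctrl and 0.993 (0.914 to 1.08) in NP-IWP2 cells on Day 5. In passaged cells it started at 1.59 (1.51 to 1.67), went through 1.28 and 0.796, and ended at 0.287 (0.228 to 0.357) on Day 10. Levels per kilobase depend on the exonic length that is used. The deposited values use all annotated exons, which is 2.92 times the canonical transcript for DNMT1, 1.72 times for TET2 and 1.46 times for DNMT3A. With the canonical length the ratio of TET2 to TET1 in passaged cells on Day 10 would be 1.40, and that of DNMT3B to DNMT3A on Day 5 would be under 1 in every arm (0.700 to 0.890). The TET shares of that passaged library would be 30.4% TET1, 42.5% TET2 and 27.2% TET3, so that TET2 and not TET1 would be the most abundant. The ratio of UHRF1 to DNMT1 would be 0.455 on Day 0 and 0.130 in passaged cells on Day 10. The summed writers would be 29.0 times the summed erasers on Day 0, and 2.15, 1.61 and 1.81 times on Day 10 in the order of arms used above. The length is 1 constant per gene, so it cannot change the direction over days of a gene or of a ratio between 2 genes. The ratio of summed writers to summed erasers was lower on Day 10 than on Day 0 with either length.

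**Figure D2:**
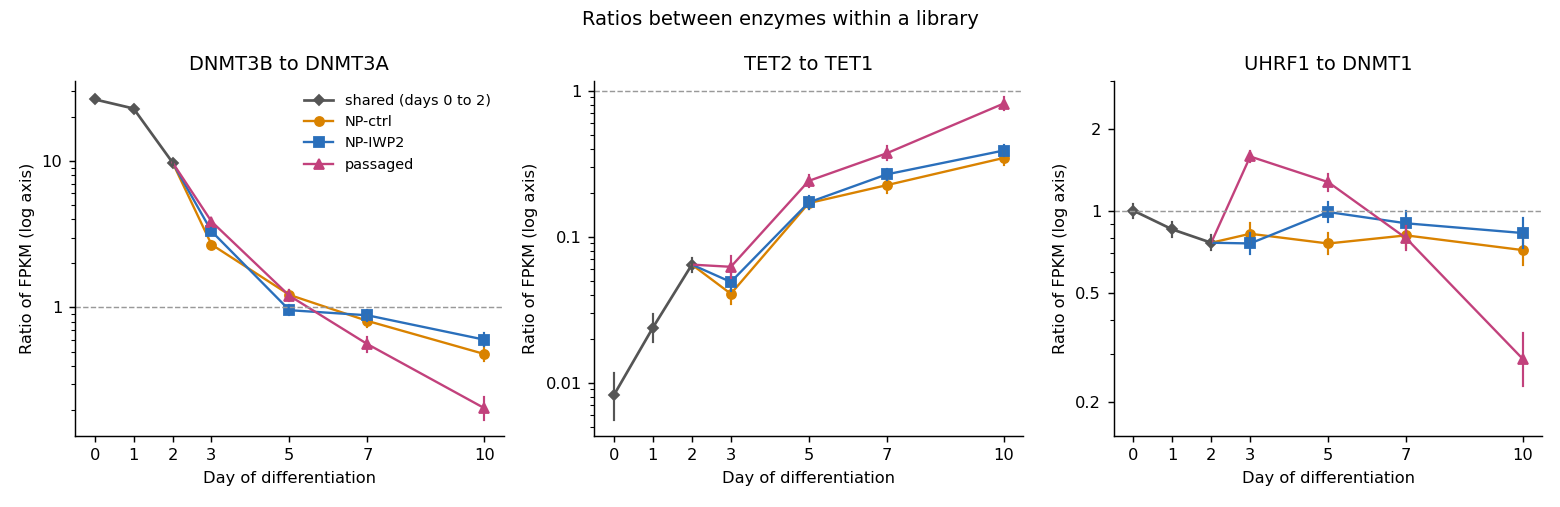
Ratio of FPKM between 2 genes of the same library (y, log axis) against the day (x), with vertical lines for the 95% counting interval and a dashed line at 1. Colours and symbols are those of the plot of FPKM by day. DNMT3B to DNMT3A falls below 1 by Day 7 in all arms, TET2 to TET1 climbs furthest in passaged cells, and UHRF1 to DNMT1 leaves the range of the other arms only in passaged cells.

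The change from Day 3 to Day 10 common to the arms was tested with edgeR's quasi-likelihood test, with the arm as a block. Its p-values measure the spread left in the 12 libraries of Days 3 to 10 once arm and day are taken out. Of the 7 members tested, 5 passed an adjusted p of 0.05, while 35.0% of all 21206 genes did. DNMT3B fell by 3.51 (SE 0.35) on the log2 scale (edgeR adjusted p = 5.18e-05). UHRF1 fell by 2.14 (SE 0.59, edgeR adjusted p = 0.015) and DNMT1 by 1.41 (SE 0.27, edgeR adjusted p = 0.00215). TET1 fell by 1.00 (SE 0.17, edgeR adjusted p = 0.00111), and TET2 rose by 2.26 (SE 0.21, edgeR adjusted p = 3.6e-05). The 5 genes moved the same way in each of the 3 arms. DNMT3A differed by -0.45 (SE 0.20) with an edgeR adjusted p of 0.103, and TET3 by 0.26 (SE 0.27) with an edgeR adjusted p of 0.505. Without the NP-IWP2 arm the adjusted p of DNMT1 was 0.0634 and that of UHRF1 0.0951 in edgeR, and 3 members were called.

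Seen from Day 0 as single libraries without a test, 4 members differed by at least 1 on the log2(FPKM + 1) scale on Day 10 in NP-ctrl and in NP-IWP2. TET2 was higher, and DNMT1, UHRF1 and DNMT3B were lower. In passaged cells TET1 was also lower, which made 5. The share of all genes past this difference was 33.0% (NP-ctrl), 34.9% (NP-IWP2) and 31.0% (passaged). UHRF1 was at 0.259 (0.228 to 0.293) of its Day 0 level in NP-ctrl cells, with 0.216 (0.191 to 0.245) for NP-IWP2 cells and 0.065 (0.0518 to 0.0806) for passaged ones. For DNMT1 the ratios were 0.361, 0.262 and 0.228, and for TET1 they were 0.536, 0.677 and 0.339.

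No member passed edgeR's test of a difference between arms averaged over Days 3 to 10, with the day as a block. In passaged against NP-ctrl cells 4.40% of all genes were called and 0 of 7 members. TET1 alone had an unadjusted p under 0.05, with a log2 difference of -0.43 (SE 0.15, edgeR adjusted p = 0.130). It was lower in 4 of 4 days. In passaged against NP-IWP2 cells 1.33% of all genes were called and again 0 of 7 members. TET1 was nearest, at -0.64 (SE 0.15, edgeR adjusted p = 0.0686), and was lower in 4 of 4 days. DESeq2 called TET1 in both comparisons (adjusted p = 0.0441 and 0.00227), and limma on log2(FPKM + 1) called no member. In NP-IWP2 against NP-ctrl cells 0.0189% of all genes were called. None of the 7 members had an unadjusted p under 0.05 there, and neither DESeq2 nor limma called one. The largest estimate was that of TET2, 0.38 (SE 0.18, edgeR adjusted p = 0.973).

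An average over days hides members whose difference changed sign. UHRF1 averaged 0.49 (SE 0.49) above NP-ctrl in passaged cells, and 1.06 (SE 0.36) when Day 10 was left out or -0.19 (SE 0.41) when Day 3 was left out. None of these passed edgeR's test, with adjusted p of 0.668, 0.227 and 0.840. DNMT3B averaged -0.43 (SE 0.28, edgeR adjusted p = 0.463) and was called without Day 3, at -0.83 (SE 0.22, edgeR adjusted p = 0.0393). Against NP-IWP2 the same estimate without Day 3 was -0.86 (SE 0.22, edgeR adjusted p = 0.0755).

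**Figure D3:**
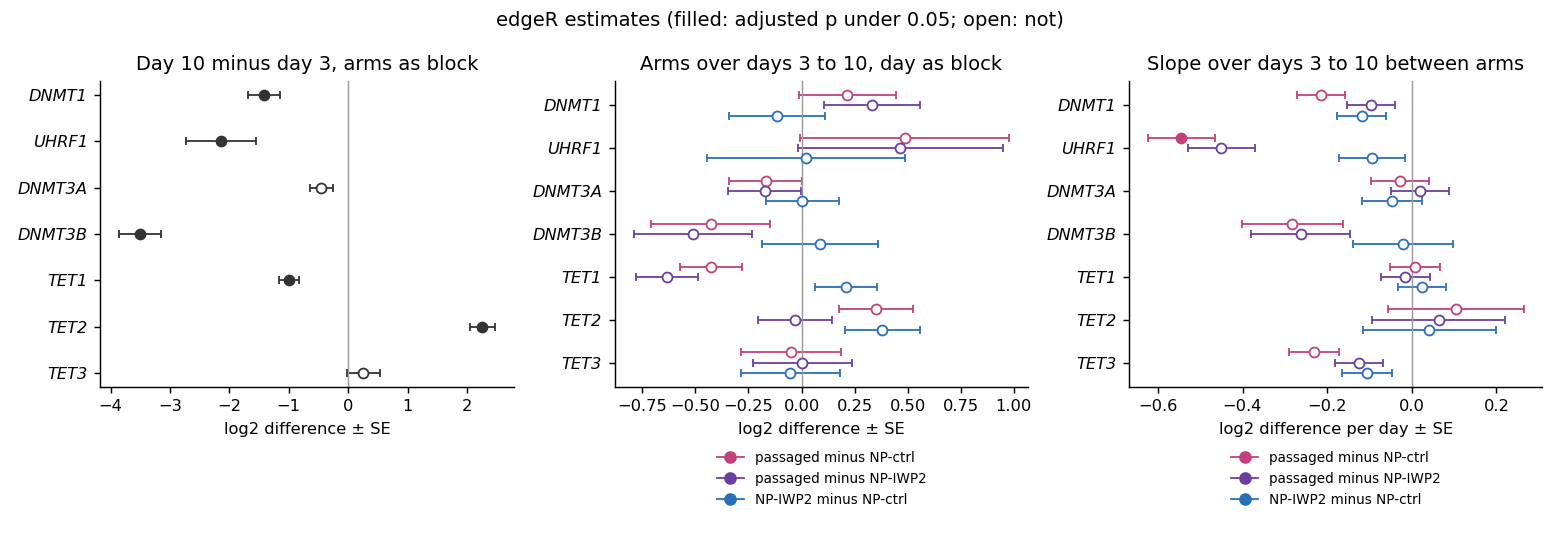
edgeR estimates with standard errors for 7 genes on the log2 scale. Left, Day 10 minus Day 3; middle, differences between arms averaged over Days 3 to 10; right, differences between arms in the slope per day. Filled circles have an adjusted p under 0.05. In the left panel 5 circles are filled, in the middle none, and in the right 1, UHRF1 in passaged minus NP-ctrl cells at -0.54 per day.

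Day by day the passaged arm started above the others in the maintenance pair and by FPKM ended below them. For DNMT1 this end was narrow against NP-IWP2, with a Day 10 FPKM of 3.92 (passaged), 4.50 (NP-IWP2) and 6.22 (NP-ctrl). On Day 3 UHRF1 was 4.56-fold (4.17 to 4.98) higher in passaged than in NP-ctrl cells, and the excess over NP-IWP2 cells was 3.71-fold (3.40 to 4.06). DNMT1 was 2.37-fold (2.26 to 2.50) and 1.78-fold (1.70 to 1.87) higher. These 2 members differed from NP-ctrl by at least 1 on the log2(FPKM + 1) scale, as 8.49% of all genes did. From NP-IWP2 only UHRF1 did, as 8.70% of all genes did. TET3 was 2.11-fold (1.91 to 2.32) higher in passaged than in NP-ctrl cells on that day, under this measure at its low level.

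On Day 5 the excess of UHRF1 in passaged over NP-ctrl cells was 1.88-fold (1.70 to 2.08). On Day 7 the ratio was 0.919 (0.809 to 1.04), whose interval spans 1. On Day 10 UHRF1 was 3.98-fold lower in passaged than in NP-ctrl cells and 3.33-fold under the NP-IWP2 level. DNMT3B was 2.88-fold and 3.28-fold lower. These 2 members were past the same measure against both arms, where 17.4% of all genes were past it against NP-ctrl and 10.1% against NP-IWP2. TET3 was 1.85-fold lower than in NP-ctrl cells on Day 10, the reverse of its order on Day 3. NP-IWP2 and NP-ctrl cells differed less, and no member was past the measure on Day 3 or on Day 10, where 4.15% and 9.35% of all genes were.

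The change of sign was tested as a difference in slope over Days 3, 5, 7 and 10. UHRF1 fell by 0.54 per day (SE 0.079) on the log2 scale more steeply in passaged than in NP-ctrl cells, and it was the only member called (edgeR adjusted p = 0.0432). In this test 0.160% of all genes were called. The call was lost when any one of the 4 days was left out, with edgeR adjusted p between 0.0663 and 0.368, although the estimate stayed between -0.52 and -0.55. DNMT1 (-0.21, SE 0.057), TET3 (-0.23, SE 0.060) and DNMT3B (-0.28, SE 0.12) had edgeR adjusted p of 0.134, 0.129 and 0.295. DESeq2 called DNMT1 and TET3 as well as UHRF1. Against NP-IWP2 the slope of UHRF1 differed by -0.45 per day (SE 0.079, edgeR adjusted p = 0.192), where 0.00472% of all genes were called and DESeq2 called UHRF1 alone of the members. Between NP-IWP2 and NP-ctrl cells 0 of 21206 genes were called (0%), although 1204 had an unadjusted p under 0.05, none of them a member. DESeq2 called 3 genes there and limma 0.

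Genes of DNA replication moved with the maintenance pair. Of 24 S phase genes, 21 fell from Day 3 to Day 10 and none rose, with a median of -1.57 on the log2 scale against 0.039 over all genes tested. CDT1, which licenses replication origins, fell by 3.24, and the helicase subunit MCM5 fell by 2.18 (edgeR adjusted p = 2.1e-05 and 0.000113). All 10 mitosis genes fell as well, with a median of -1.87. On Day 3, 23 of 24 S phase genes were higher in passaged than in NP-ctrl cells, with a median difference of 0.95 on the log2(FPKM + 1) scale, whereas 3 of 10 mitosis genes were. On Day 10, 2 of 24 S phase genes and 1 of 10 mitosis genes were higher, with medians of -0.59 and -1.44. No S phase gene was called between arms averaged over days. The part of these genes in the course of DNMT1 and UHRF1 was not tested.

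Across the 15 libraries, Pearson's r with the median of the S phase genes was 0.957 for DNMT1, 0.930 for UHRF1 and 0.917 for DNMT3B. It was -0.023 for TET3, 0.268 for DNMT3A, 0.725 for TET1 and -0.881 for TET2. The libraries share one course of differentiation, so most genes that change with time correlate with one another. DNMT3B followed the pluripotency markers (r = 0.941) and ran against TET2 (r = -0.947), and DNMT1 followed UHRF1 (r = 0.947).

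**Figure D4:**
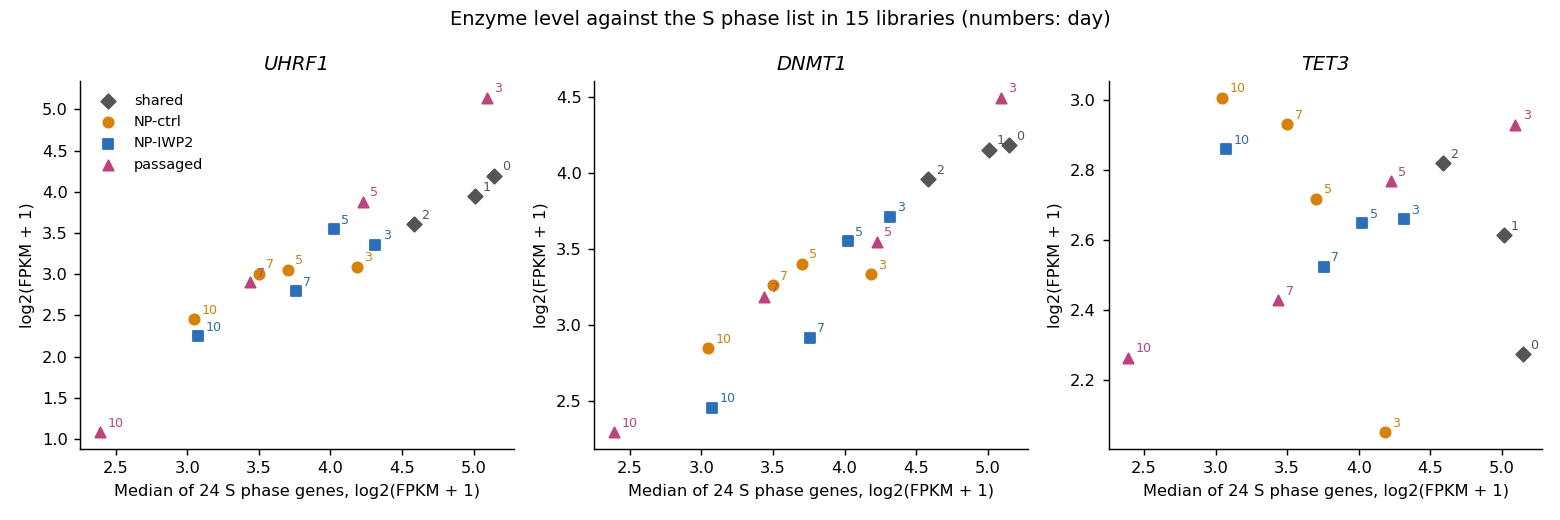
Level of UHRF1, DNMT1 and TET3 (y) against the median of 24 S phase genes (x), both as log2(FPKM + 1), with 1 point per library and the day beside it. UHRF1 and DNMT1 lie along a line from passaged Day 10 at the lower left, where the S phase median is 2.39, to the libraries of Days 0 and 1 and passaged Day 3 at the upper right, where it is between 5.01 and 5.15. UHRF1 in passaged cells on Day 3 lies above the line, at 5.14 with an S phase median of 5.10. On Day 0 UHRF1 was 4.19 with a median of 5.15. TET3 shows no such line.

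The protein-coding genes whose log2(FPKM + 1) was most like that of each member over the 15 libraries were named from 13873 compared. For DNMT1 they were CAD, a pyrimidine synthesis enzyme (r = 0.974), NUP62 and UBA1. For UHRF1 they were IPO9, ZNF367 and TIMELESS, a replication fork protein (r = 0.952). DNMT3B was most like SCLY, PCDH1 and CYP2S1 (r = 0.982, 0.980 and 0.979). DNMT3A had no close companion, with r of 0.891 for TECPR2 and 0.844 for MFSD2B. TGIF1 (r = 0.925) and DPH6 were among the 3 most like TET1. TET2 was most like PIK3CA (r = 0.970), RC3H2 and ZNF461, and TET3 like ANKRD61 (r = 0.884), SMG1 and HMGXB3.

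Further genes of the pathway were counted against the background of the test, in which 35.0% of all genes were called from Day 3 to Day 10. Shares near it are not results about a list. Of 12 partners of maintenance and de novo methylation above the filter, 5 fell over these days, none rose, and the median was -0.43 against 0.039 over all genes tested. CDCA7, which recruits the remodeller HELLS, fell by 1.49 (edgeR adjusted p = 7.05e-05). TRIM28, a corepressor at imprinted loci and retroelements, fell by 1.58, and EHMT2, a histone H3 lysine methyltransferase, fell by 1.06. HELLS itself fell by 1.76 (edgeR adjusted p = 0.0103). Between arms, 4.40% of all genes were called in passaged against NP-ctrl cells and 1.33% in passaged against NP-IWP2 cells. Among the partners only CDCA7 was called between arms, in both of these comparisons. Its FPKM on Days 3, 5, 7 and 10 was 34.2, 33.1, 13.02 and 10.6 in passaged cells, 18.3, 16.4, 7.59 and 5.78 in NP-ctrl cells and 18.0, 18.6, 9.07 and 7.05 in NP-IWP2 cells. The passaged arm was thus above both others on every day. The log2 difference was 0.94 (SE 0.13, edgeR adjusted p = 0.00405) against NP-ctrl and 0.79 (SE 0.13, edgeR adjusted p = 0.0215) against NP-IWP2. Unlike UHRF1, CDCA7 kept its excess on Day 10.

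Of 10 genes of the methyl-CpG reader families, 3 rose and 1 fell from Day 3 to Day 10, with a median of 0.20, and the share called was near the 35.0% of all genes. Among them MBD5 rose by 1.08 and ZBTB38 by 0.63, while MBD3, a subunit of the NuRD complex, fell by 1.14. No reader was called between arms. Among 17 genes of active demethylation and base excision repair, 3 rose and 8 fell, with a median of -0.76 and the same background of 35.0%. GADD45G, a stress-induced adaptor, rose by 2.12, and CXXC4 rose by 1.56. LIG3, a DNA ligase, fell by 1.12 and the endonuclease APEX1 fell by 1.02. PARP1 was higher in passaged than in NP-ctrl cells by 0.61 (SE 0.14, edgeR adjusted p = 0.0376), the only one of the 17 called between arms. Of all genes 4.40% were called in that comparison, so a single call is near the background and no result about the list. Against NP-IWP2 PARP1 was not called (0.62, edgeR adjusted p = 0.0747). TDG, the glycosylase that removes oxidised methylcytosine, was not called from Day 3 to Day 10 and had an FPKM between 11.7 and 19.5 in all libraries.

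Of 12 genes of the methionine and folate cycles, which supply the methyl donor, 5 fell and 2 rose from Day 3 to Day 10, where 35.0% of all genes were called. The median was 0.032. SHMT2 and SHMT1, which feed the folate cycle from serine, fell by 1.43 and 1.37, MTHFD1 fell by 0.98 and MTHFD2 by 1.32. MAT2A, the enzyme that makes S-adenosylmethionine, was higher in passaged than in NP-ctrl cells by 0.80 (SE 0.15, edgeR adjusted p = 0.0149). It was the only one of the 12 called there, where 4.40% of all genes were called. A single call is near that background and no result about the list. Against NP-IWP2 the difference of MAT2A was 0.52 and was not called by edgeR. Of 14 genes that set 2-oxoglutarate or the inhibitors of TET enzymes, or that carry ascorbate, 3 rose and none fell, against the same background of 35.0%. The median was 0.34. IDH3A rose by 2.12, the ascorbate transporter SLC23A2 by 1.31 and IDH2 by 1.21. OGDH, which consumes 2-oxoglutarate, was higher in passaged than in NP-ctrl cells by 0.80 (SE 0.16, edgeR adjusted p = 0.0189). It was the only one of the 14 called there, against the same 4.40% of all genes. Against NP-IWP2 OGDH was not called (0.51, edgeR adjusted p = 0.180). In none of these lists was a gene called between NP-IWP2 and NP-ctrl cells, or in any difference of slopes.

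Genes of the germline that are known to be silenced by promoter methylation in somatic cells stayed low. Of 15 such genes, 14 never reached an FPKM of 1, and the highest value among them was 0.90 (STK31 on Day 2). The exception was DPEP3, a dipeptidase of the testis. Its FPKM was 4.07 on Day 0 and 8.33 on Day 2, then 10.9, 5.47, 1.17 and 0.38 in NP-ctrl cells and 3.95, 0.83, 0.19 and 0.15 in passaged cells. It fell by 5.25 from Day 3 to Day 10 (edgeR adjusted p = 2.33e-05), where 35.0% of all genes were called. It was lower in passaged than in NP-ctrl cells by a log2 difference of -2.09 (SE 0.36, edgeR adjusted p = 0.0106), where 4.40% were called. In passaged against NP-IWP2 cells the difference was -1.50 (SE 0.36) and was not called (edgeR adjusted p = 0.0800). DPEP3 was the only one of the 15 that could be tested, so these calls are no result about the list.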

How the data were processed

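RNA of 15 libraries was sequenced from H1 cells. Per the labels, the authors' tools were cutadapt 1.9.1, HISAT2 2.0.1, HTSeq 0.6.1 and DESeq2 with build hg38. The authors deposited whole-number counts and FPKM per gene. A long-read kit (SMRTbell) is named beside these short-read tools, so values scaled by gene length carry that doubt. The strand setting was not given in the sources used here. FPKM recomputed from the deposited counts differed by at most 0.005. Of the genes, 60463 matched GENCODE 44 and 93.8% of these had identical coordinates.

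Members and gene lists were chosen with earlier results of these data known. Genes with an FPKM of 1 in at least 1 library (21206) were tested in 12 libraries with edgeR 4.0.16 (TMM, quasi-likelihood, Benjamini-Hochberg, adjusted p under 0.05), with the arm and day as terms, or a slope per arm. Single libraries were compared as log2(FPKM + 1) with a threshold of 1 and Clopper-Pearson intervals. Named list genes were the at most 4 called with the lowest p per list and comparison. The marker genes, TDG, CDCA7L and STK31 were named for their levels, the last 3 after their values were seen. Alternatives were RLE factors, no filter, DESeq2 1.42.0, limma 3.58.1, leaving out days or arms, only the arms compared, a pseudocount of 0.1, TPM and TMM-scaled FPKM. The canonical transcript length was added after seeing the data. The test was checked on simulated counts. For 2 of the genes that these rules name, values are not reported here.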

Additional observations from a re-analysis of the deposited data

Results flagged for a closer look

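UHRF1 differed between arms in its slope over Days 3 to 10, by -0.54 log2 units per day in passaged minus NP-ctrl cells, by the edgeR test of the difference itself (adjusted p = 0.0432). Its level was higher in passaged cells on Days 3 and 5 and lower on Day 10. With 1 library per group, no sample could be compared with others of its group. The mitochondrial share was lowest (1.53%) in the passaged library of Day 3 and highest (10.3%) in that of Day 10, which are also the libraries with the highest and the lowest UHRF1. The part of this share was not tested.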

How the results depend on the processing

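The count of members called from Day 3 to Day 10 was 5 under every alternative but the fit without NP-IWP2, and leaving out 1 arm or day gave 3 to 5. Between arms, DESeq2 called 1 member in passaged minus NP-ctrl and 1 in passaged minus NP-IWP2 cells, where edgeR called 0. Leaving out days gave 0 to 1 and 0 to 0. For slopes, DESeq2 called 3 members instead of 1 in passaged minus NP-ctrl and 1 instead of 0 in passaged minus NP-IWP2 cells, and leaving out days gave 0 to 0 in both. Among single libraries, Day 2 minus Day 0 gave 2 members instead of 1 with a pseudocount of 0.1 and 2 with TPM, and passaged minus NP-ctrl on Day 3 gave 4 instead of 2 with TPM, which moved the median of all genes there from 0.028 to 0.28. In passaged minus NP-ctrl cells on Day 10, TPM moved that median from -0.09 to -0.38. The causes were not tested. For the 13 single-gene estimates that had an unadjusted p under 0.05 in edgeR, 101 of 112 alternatives kept direction and call, 6 lost a call, 5 gained one and none changed sign. Other estimates did change: without Day 3, UHRF1 in passaged minus NP-ctrl cells went from 0.49 to -0.19, and DNMT3B gained a call there (edgeR adjusted p = 0.0393). Some small differences between single libraries changed sign with TPM or TMM-scaled FPKM. Among them were UHRF1 (-0.10 to 0.034) and DNMT1 (-0.079 to 0.063) in passaged minus NP-ctrl cells on Day 7 with TMM-scaled FPKM. With TPM, TET2 in passaged minus NP-IWP2 cells on Day 10 went from 0.053 to -0.15. Depth limits TET2 on Day 0 (31 counts), UHRF1 in passaged cells on Day 10 (88) and DNMT3L.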

Other observations

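CDCA7L, a paralogue of CDCA7, went through a low point. Its FPKM was 29.1 on Day 0 and 12.1 on Day 2. On Day 3 it was 1.12 (NP-ctrl), 1.88 (NP-IWP2) and 3.85 (passaged). The same arms had 0.31, 0.85 and 9.18 by Day 5, and ended at 8.41, 15.4 and 2.36. Passaged cells thus had the highest level on Day 5 and the lowest on Day 10. CDCA7L was named after its values were seen and was not called in any comparison.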
